A study of Mus musculus with 4 samples.

Results

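Interferon response genes are the genes that cells switch on when interferon reaches them, and 39 of them were followed here in mouse thymic epithelial cells with and without deletion of the homeobox gene Meis1. The 39 genes were chosen by name as widely known interferon targets, not by their values in these arrays, although results of these data were known when the list was drawn up. All 39 had probes on the arrays, 60 probes in all. Of the 39, 38 were tested among 16820 features, and Mx2 was not tested because its signal was above background on 1 array of each genotype. By role, the 38 tested genes comprised 4 signalling factors, 5 sensors of RNA or DNA, 14 antiviral effectors, 3 genes of ubiquitin-like modification and feedback, 7 interferon-inducible GTPases and 5 other induced genes.

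Interferons are secreted proteins that warn tissue of infection. Type I and type III interferons act through receptors whose Jak kinases lead to a complex, with STAT2 and IRF9 among its parts, that binds the interferon-stimulated response element (ISRE). Interferon gamma acts through its own receptor and the gamma-activated site (GAS). In the thymus, where epithelial cells rear developing T cells, interferons are also made without infection, and some induced genes are expressed at rest.

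Pooled thymic epithelial cells were profiled on 4 single-colour (Cy3) arrays, 2 for each genotype. The Meis1-CKO pools came from K14-CreERT2 Meis1 fl/fl mice, in which both alleles of Meis1 can be excised. The control pools came from K14-CreERT2 Meis1 fl/+ mice, which the labels call WT although they carry 1 floxed allele. Both genotypes carried the recombinase under the keratin 14 promoter, and both received 1 mg of tamoxifen on 3 successive days from the age of 3 weeks. Cells that were CD45- and EpCAM+ were sorted 4 days after treatment from pools of 6 mice, in 2 independent experiments, with 10 ng of RNA as the input to cDNA amplification. The strain background is not given in the labels. Control 1 and Meis1-CKO 1 shared a slide and a scan (slide 1), and control 2 and Meis1-CKO 2 shared another (slide 2), so differences are given within each slide.

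The Meis1-CKO 2 array stood apart from the rest before any result is given. Over all tested features its correlation with the other 3 arrays was 0.856 to 0.884, while those 3 correlated with each other at 0.936 to 0.943. Meis1 itself, the deleted gene, read -0.12 in control 1, -0.91 in control 2, -0.44 in Meis1-CKO 1 and -2.08 in Meis1-CKO 2. These are log2 signals relative to the 75th percentile of each array, the scale of every level below. Meis1-CKO 1 lay between the controls for Meis1, so the target gene did not separate the genotypes. The epithelial marker Epcam read 4.24 and 4.72 in the controls and 4.47 and 4.11 in Meis1-CKO. The share of spots well above background ran from 58.6% to 63.6%, and 0 were saturated.

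Start-site sequences were compared first, because many of these genes share the element through which interferon signals reach them. RefSeq start-site windows on GRCm38.p6, from 250 bases before to 50 bases after the start, were matched for 30 of the 39 genes. The ISRE letters searched were GAAA, any 2 bases and GAAA again, on either strand, and each position was counted, so matches can overlap one another. They stood in a window of 18 of the 30 genes, or 60%, against 3.99% of 27025 genes in the whole table. The GAS letters TTCNNNGAA, which read the same on both strands and can share bases with an ISRE match, stood in 10 of the 30, or 33.3%, against 9.55%. For 14 of the 30 an ISRE match lay wholly before the start. Of these 14, the 4 with the greatest and the 2 with the smallest Meis1-CKO 2 minus control 2 differences are shown, so that like letters can be read beside unlike values. Each line is the 250 bases before the start, with the ISRE letters in capitals. The windows are Oas3 at chr5:120777660-120777909 (minus strand), Rsad2 at chr12:26456453-26456702 (minus strand) and Isg15 at chr4:156200819-156201068 (minus strand). The others are Stat2 at chr10:128270248-128270497 (plus strand), Gbp3 at chr3:142559794-142560043 (plus strand) and Socs1 at chr16:10785537-10785786 (minus strand).
Oas3: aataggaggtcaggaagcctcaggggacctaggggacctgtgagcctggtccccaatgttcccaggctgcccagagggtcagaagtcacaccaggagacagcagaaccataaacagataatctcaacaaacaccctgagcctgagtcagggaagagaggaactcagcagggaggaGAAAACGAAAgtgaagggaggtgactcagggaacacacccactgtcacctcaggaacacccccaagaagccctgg
Rsad2: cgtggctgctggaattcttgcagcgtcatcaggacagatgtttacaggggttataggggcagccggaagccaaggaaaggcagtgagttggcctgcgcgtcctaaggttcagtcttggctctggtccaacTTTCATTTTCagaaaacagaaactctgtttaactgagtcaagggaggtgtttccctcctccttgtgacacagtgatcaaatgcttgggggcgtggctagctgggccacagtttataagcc
Isg15: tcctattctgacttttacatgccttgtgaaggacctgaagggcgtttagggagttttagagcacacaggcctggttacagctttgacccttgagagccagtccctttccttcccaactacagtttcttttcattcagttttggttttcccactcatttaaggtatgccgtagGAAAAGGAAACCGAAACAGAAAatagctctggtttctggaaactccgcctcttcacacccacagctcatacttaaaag
Stat2: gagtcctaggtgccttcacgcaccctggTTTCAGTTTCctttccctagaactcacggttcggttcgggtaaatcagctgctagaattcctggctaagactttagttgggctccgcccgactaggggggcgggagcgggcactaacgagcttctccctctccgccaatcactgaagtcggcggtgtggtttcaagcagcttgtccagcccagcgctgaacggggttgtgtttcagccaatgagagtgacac
Gbp3: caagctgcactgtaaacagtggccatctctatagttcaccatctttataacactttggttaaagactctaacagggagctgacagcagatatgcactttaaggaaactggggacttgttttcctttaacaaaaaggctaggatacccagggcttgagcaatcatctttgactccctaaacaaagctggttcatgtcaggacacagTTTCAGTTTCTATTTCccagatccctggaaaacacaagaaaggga
Socs1: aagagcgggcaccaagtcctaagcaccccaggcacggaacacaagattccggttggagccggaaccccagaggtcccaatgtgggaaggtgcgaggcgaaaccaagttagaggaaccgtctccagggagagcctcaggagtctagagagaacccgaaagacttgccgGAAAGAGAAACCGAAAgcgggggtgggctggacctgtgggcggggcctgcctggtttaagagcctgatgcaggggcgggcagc
Oas3 and Rsad2 each held 1 match, starting 75 and 120 bases before the start. Isg15 held 3 overlapping matches, the first 78 bases before the start, and Socs1 held 2, the first 83 bases before it. The letters thus stood in windows of genes with large slide 2 differences and of genes with small ones. Whether they bear on the size of the difference was not tested. On slide 2 the median log2 difference was 1.89 over the 18 genes with an ISRE match and 2.01 over the 12 without. For GAS it was 1.82 with a match (10 genes) and 1.89 without (20 genes). The windows of Ifit2 and Irf7, with the greatest differences of all members on slide 2, held no ISRE letters.

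The interferon response genes read high in Meis1-CKO 2 and close to control in Meis1-CKO 1. The median level over the 38 genes was 1.30 in control 1, 0.72 in control 2, 1.04 in Meis1-CKO 1 and 3.12 in Meis1-CKO 2. Meis1-CKO 2 was the highest of the 4 arrays for 36 of the 38 genes, against 29.1% of all features, and at least 2-fold above the next array for 28 of them, against 6.54%. The exceptions were Ifitm3 and Socs1, both highest in control 1. Meis1-CKO 1 lay between the controls for 20 genes, above both for 7 and below both for 11, against 39.7%, 29.1% and 31.2% of all features. Between the controls, control 2 read below control 1 for 21 genes, against 46.7% of all features. The pool with high levels was thus 1 of the 2 pools of its genotype.

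Within slide 1, 14 of the 38 genes read higher in Meis1-CKO, against 50.1% of all features. The differences ran from -1.15 to 0.42 on the log2 scale, and 0 genes were at least 2-fold higher, against 8.55% of all features. Within slide 2, 38 of 38 read higher, against 43.7%, and 31 were at least 2-fold higher, against 11.3%. None of the 38, a count of 0, was 2-fold lower on slide 2, against 17.1% of all features. The slide 2 differences ran from 0.04 to 4.78, and under quantile normalization 35 of 38 read higher on slide 2, the lower ones being Ifitm3, Irf1 and Socs1. On both slides 14 genes read higher, against 20.4% of all features. Over all 16812 features with a value on each array, the median difference was 0.00 on slide 1 and -0.12 on slide 2. Each slide holds 1 array of each genotype, so these differences have no replicate check.

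**Figure D1:**
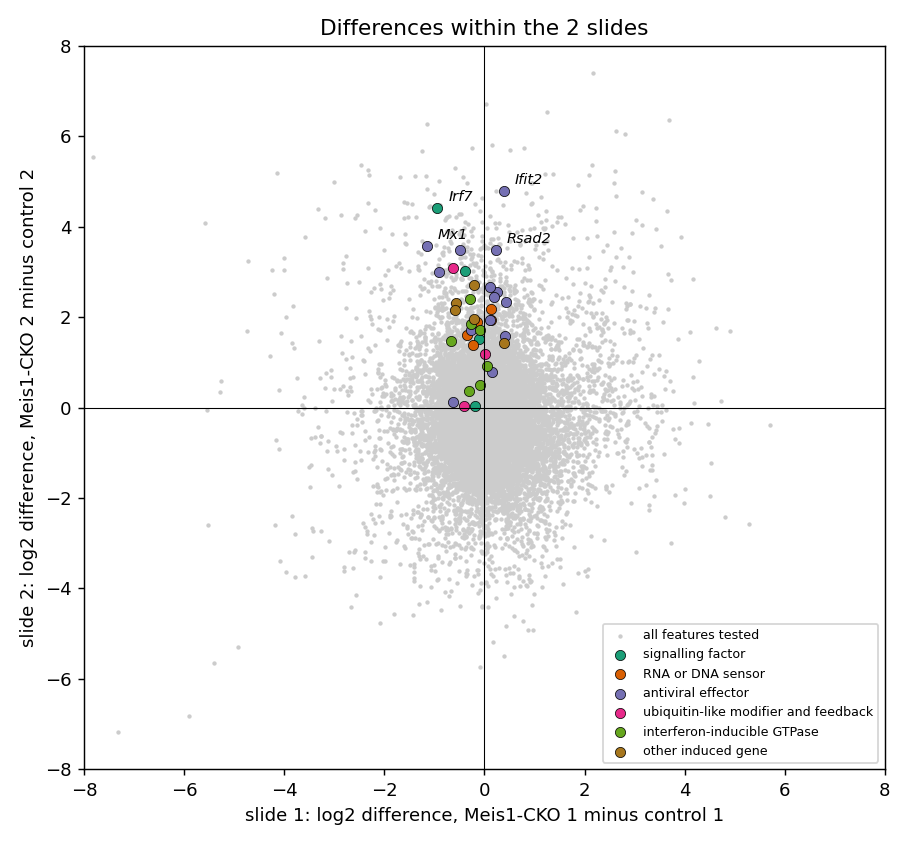
Log2 difference between Meis1-CKO and control within slide 1 (horizontal axis) and slide 2 (vertical axis), with interferon response genes as circles coloured by role and all tested features in grey. The 38 genes form a column above 0 that reaches 4.78 on slide 2 while staying between -1.15 and 0.42 on slide 1.

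In limma's test over all features with Benjamini-Hochberg adjustment, 0 of the 38 genes passed an adjusted p of 0.05, with 0 of 16820 features, or 0%, passing in all. At an unadjusted p under 0.05 limma gave 469 features, or 2.79%, and 0 of the 38 genes. With the slide as a block it gave 0 features after adjustment and 667 before. The median fitted difference was 0.89 (range -0.26 to 2.59), against -0.05 over all features, with 35 of 38 genes higher in Meis1-CKO. Every member had an adjusted p of 1, and the lowest unadjusted p was 0.124, for Ifih1. Both Meis1-CKO pools read above both control pools for 7 genes (Ifih1, Ifit1, Ifit2, Oasl2, Rsad2, Igtp and Ifi35), against 11.1% of all features. By the probes that stood for genes, the pools of the genotypes overlapped for the other 31 members. Of the 7, Ifih1, Ifit2 and Rsad2 each had another probe on which the pools overlapped. Of the 31, Irf1 and Trim25 each had another probe, above background on every array, on which both Meis1-CKO pools read above both controls. That Trim25 probe read 1.43 and 1.71 in the controls and 1.92 and 3.99 in Meis1-CKO. Whether the pools overlapped thus depended on the probe in both directions.

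The comparison turned on 1 array. Without Meis1-CKO 1, limma compared the lone Meis1-CKO 2 with the controls, its spread assumed to be like theirs, and called 325 features, 204 of them higher (1.21% of all features). Of the 38 genes, 4 were called, namely Ifit2, Irf7, Rsad2 and Stat2, and the median difference was 1.77. Without Meis1-CKO 2 the median difference was -0.07, with 12 of 38 genes higher and 0 called. The call thus appeared in the fit that holds Meis1-CKO 2 alone.

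Among the signalling factors, Irf7, the transcription factor that amplifies type I interferon production, had the widest spread. It read -0.17 in control 1, -0.84 in control 2, -1.12 in Meis1-CKO 1 and 3.57 in Meis1-CKO 2. Meis1-CKO 1 was the lowest array and Meis1-CKO 2 the highest, so the genotypes overlapped. The difference was -0.94 on slide 1 and 4.41 on slide 2, a 21.2-fold ratio on slide 2, and the fitted difference was 1.73 ± 1.48 (SE, n = 2 pools each). Against the controls alone, without Meis1-CKO 1, it was 4.07 in limma (adjusted p = 0.0325).

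Stat2, a signal transducer of the type I and type III receptors, was dim in 3 pools. It read -2.91 and -2.98 in the controls, -3.31 in Meis1-CKO 1 and 0.03 in Meis1-CKO 2. Only in Meis1-CKO 2 did it leave the low range, 8.08-fold above control 2, and its fitted difference of 1.31 was 0.65 under normexp background correction. Irf9, the DNA-binding partner of Stat2, read -0.42 and -0.22 in the controls, -0.54 in Meis1-CKO 1 and 1.29 in Meis1-CKO 2. Its slide differences were -0.11 and 1.52, with Meis1-CKO 1 lowest and Meis1-CKO 2 highest on this probe as for Stat2. A second Irf9 probe read 0.07 and -1.09 in the controls and -0.04 and 0.15 in Meis1-CKO. There control 2 was lowest and Meis1-CKO 2 was close to control 1. Irf1, a transcription factor induced chiefly by interferon gamma, read 3.92 and 4.12 in the controls and 3.73 and 4.16 in Meis1-CKO. On this probe the 4 arrays lay close together for Irf1, with slide differences of -0.19 and 0.04. A second Irf1 probe read -0.72 and -0.08 in the controls and -0.07 and 0.17 in Meis1-CKO. Its slide differences were 0.66 and 0.25, so the slide 1 sign of Irf1 depended on the probe. By the probes that stood for genes, 0 of the 4 signalling factors read higher on slide 1. The median difference was -0.29 there and 2.27 on slide 2.

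The sensors recognise foreign or misplaced nucleic acid and are themselves induced by interferon. Ifih1 (MDA5), a helicase that binds long double-stranded RNA, read 1.43 and 0.63 in the controls and 1.57 and 2.56 in Meis1-CKO. Its pools did not overlap, but Meis1-CKO 1 exceeded control 1 by 0.14 only, a second probe gave -0.15 on slide 1 with overlapping pools, and the fitted difference was 1.03 ± 0.57 (SE, n = 2 pools each). Ddx58 (RIG-I), which detects RNA ends of viral type, read 1.10 and -0.13 in the controls and 0.74 and 1.48 in Meis1-CKO. Meis1-CKO 1 lay between the controls for Ddx58, and the slide differences were -0.35 and 1.61. Dhx58 (LGP2), a related helicase that tunes both sensors, read -0.99 and -0.42 in the controls and -0.85 and 1.76 in Meis1-CKO. Zbp1, a sensor of left-handed nucleic acid, read 1.55 and 1.90 in the controls and 1.41 and 3.81 in Meis1-CKO. For both Dhx58 and Zbp1 the high value was that of Meis1-CKO 2, 4.54-fold and 3.74-fold above control 2. Trim25, the ubiquitin ligase that acts with RIG-I, read 4.67 and 4.58 in the controls and 4.44 and 5.96 in Meis1-CKO. The median difference of the 5 sensors was -0.15 on slide 1, with 2 higher, and 1.90 on slide 2.

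The antiviral effectors included the member with the greatest slide 2 difference, Ifit2, whose protein binds RNA and takes part in limiting viral translation. Ifit2 (probe at chr19:34650244-34650303, mm9) read -0.65 and -0.46 in the controls, -0.27 in Meis1-CKO 1 and 4.33 in Meis1-CKO 2. On a second probe, at -1.01 and -1.48 in the controls and -1.04 in Meis1-CKO 1, the pools overlapped. On the first, both Meis1-CKO pools exceeded both controls, Meis1-CKO 1 by 0.39 within its slide and Meis1-CKO 2 by 4.78, or 27.6-fold. The fitted difference was 2.59 ± 1.45 (SE, n = 2 pools each), and without Meis1-CKO 1 it was 4.88 in limma (adjusted p = 0.0325). Ifit1, which binds RNA whose cap lacks a methyl group, lies nearby (probe at chr19:34723796-34723855, mm9) and read -0.76 and -0.55 in the controls and -0.34 and 1.03 in Meis1-CKO. The pools of Ifit1 did not overlap, with slide differences of 0.42 and 1.58. Ifit3, a partner of Ifit1 (probe at chr19:34663105-34663164, mm9), read 3.54 and 2.19 in the controls and 2.63 and 5.19 in Meis1-CKO. Meis1-CKO 1 lay between the controls for Ifit3, so these neighbours differed in order on slide 1 while each read higher on slide 2. Ifit3 has a near-identical copy, Ifit3b, from which its signal may not be distinguished.

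The Oas genes make the oligoadenylate that activates the ribonuclease RNase L. Oas3 (probe at chr5:121203598-121203657, mm9) read 2.39 and 1.67 in the controls, 1.90 in Meis1-CKO 1 and 5.15 in Meis1-CKO 2. Meis1-CKO 2 was 11.2-fold above control 2, while Meis1-CKO 1 lay between the controls. Oas1a read -0.92 and -0.39 in the controls and -0.82 and 1.54 in Meis1-CKO, and shares sequence with the copy Oas1g. Oas2 read -3.59 in control 1, where it was not well above background, -1.20 in control 2, and -3.34 and 1.36 in Meis1-CKO. On this probe the 2 dim arrays of Oas2 were those of slide 1, so its slide 1 difference of 0.26 rests on signals near background. Its fitted difference of 1.41 was 0.80 under normexp. Another Oas2 probe, above background on 2 arrays, read -3.09 and -4.84 in the controls and -3.54 and -1.37 in Meis1-CKO. There the slide 1 difference was -0.45. Oasl1, whose protein restrains translation of Irf7 in mice, read -0.75 and -0.08 in the controls and -0.33 and 2.25 in Meis1-CKO. Oasl2 read 2.71 and 2.44 in the controls and 2.85 and 3.24 in Meis1-CKO. Its pools did not overlap, with slide differences of 0.15 and 0.79, the latter well under the 2.33 of Oasl1.

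Rsad2 (viperin), an enzyme that makes a chain-terminating nucleotide, read 1.59 and 1.70 in the controls and 1.83 and 5.18 in Meis1-CKO. A second Rsad2 probe, at -2.83 and -2.30 in the controls and -2.77 in Meis1-CKO 1, gave overlapping pools, and the remaining probe did not. On the first probe the pools did not overlap. There Meis1-CKO 2 was 11.2-fold above control 2 while Meis1-CKO 1 exceeded control 1 by 0.24. The fitted difference was 1.86 ± 1.09 (SE, n = 2 pools each). Mx1, a dynamin-like GTPase against influenza virus that many laboratory mouse strains carry in a defective form, read -0.57 and -1.53 in the controls and -1.72 and 2.04 in Meis1-CKO. Its 2 slides ran in opposite directions. On this probe Meis1-CKO 1 was 0.451 times control 1, while Meis1-CKO 2 was 11.9-fold above control 2. By the probes that stood for genes, Mx1 was the sole member at least 2-fold lower on slide 1 (5.91% of all features were). A second Mx1 probe differed by -0.21 on slide 1 and 4.33 on slide 2. Mx2, its paralog, was well above background on control 2 and Meis1-CKO 2, at -3.09 and -0.35, and not on control 1 and Meis1-CKO 1, at -3.41 and -4.03.

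Isg20, a ribonuclease, read 0.16 and 0.32 in the controls and 0.27 and 3.00 in Meis1-CKO. Bst2 (tetherin), which holds budding virus at the cell surface and is also borne by plasmacytoid dendritic cells, read 0.55 and 0.96 in the controls and 0.74 and 3.40 in Meis1-CKO. For both genes Meis1-CKO 1 lay between the controls and Meis1-CKO 2 was more than 2-fold above every other array. Eif2ak2 (PKR), the kinase that halts translation on double-stranded RNA, read 1.60 and 1.73 in the controls and 1.33 and 3.45 in Meis1-CKO. Ifitm3, a membrane protein that blocks viral fusion, departed from this order at 8.34 and 7.36 in the controls and 7.71 and 7.48 in Meis1-CKO. Control 1 was the highest array for Ifitm3 and the slide differences were -0.63 and 0.12. The median difference of the 14 effectors was 0.13 on slide 1, with 9 higher, and 2.50 on slide 2.

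**Figure D2:**
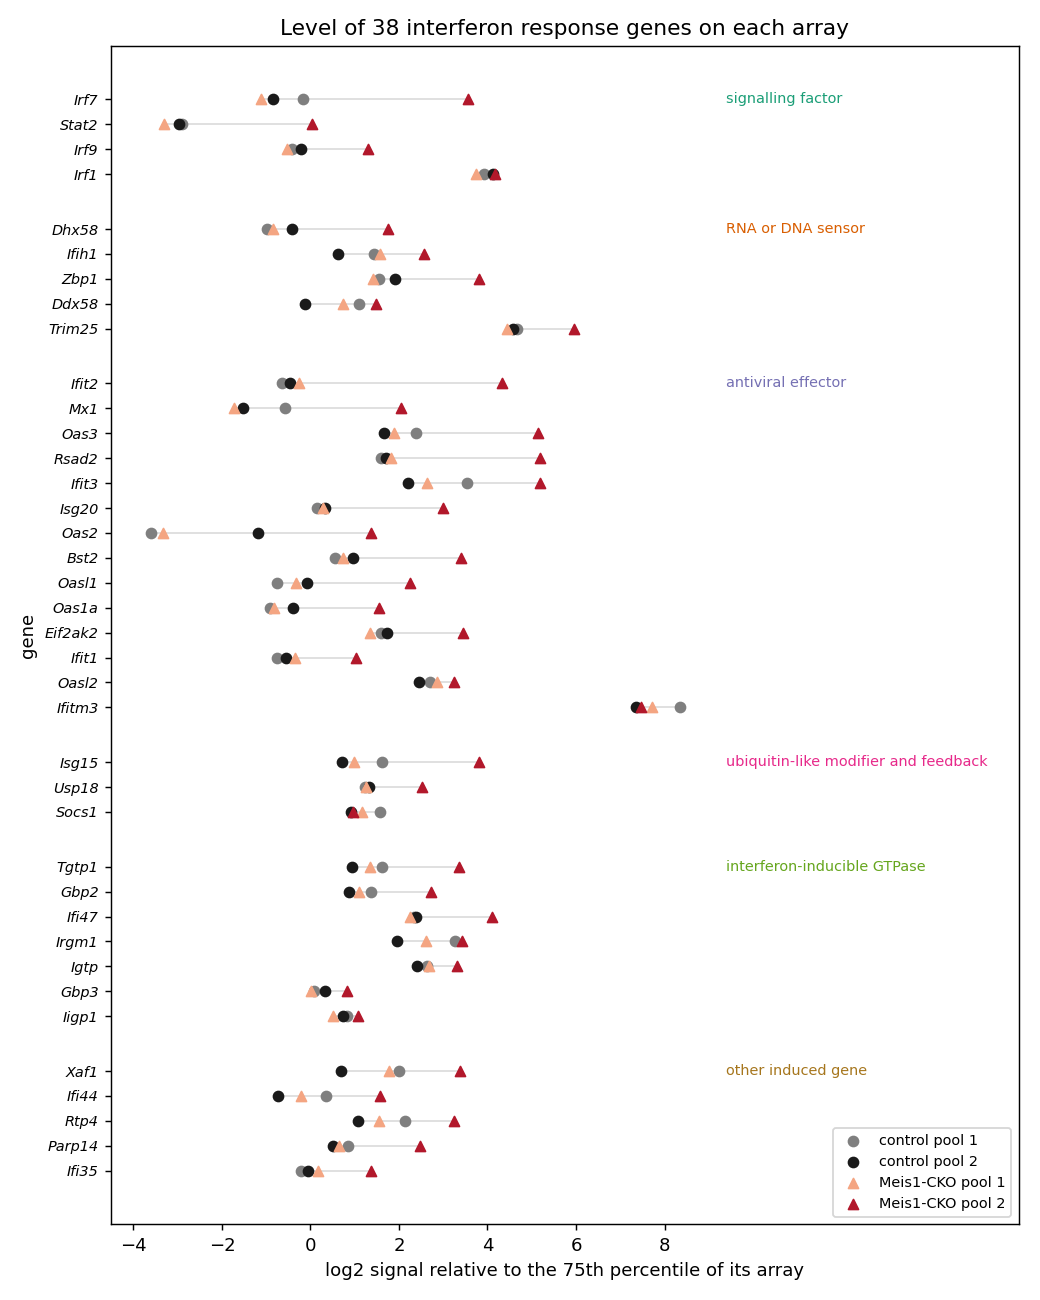
Log2 signal relative to the 75th percentile of its array (horizontal axis) for 38 interferon response genes (vertical axis, grouped by role), with control pools as circles and Meis1-CKO pools as triangles. Meis1-CKO 2 is the highest point for 36 of 38 genes, and Meis1-CKO 1 lies between the control pools for 20.

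Of the modifier and feedback genes, Isg15, a ubiquitin-like protein joined to other proteins after interferon, read 1.61 and 0.72 in the controls and 0.99 and 3.81 in Meis1-CKO. Meis1-CKO 1 lay between the controls and Meis1-CKO 2 was 8.54-fold above control 2. Usp18, the protease that removes Isg15 and damps the type I receptor, read 1.24 and 1.33 in the controls and 1.26 and 2.52 in Meis1-CKO, with slide differences of 0.02 and 1.19. Socs1, the inhibitor of Jak kinases, read 1.58 and 0.91 in the controls and 1.17 and 0.96 in Meis1-CKO. Both Meis1-CKO pools lay between the controls for Socs1, with slide differences of -0.41 and 0.04. Its window above held ISRE letters as Isg15's did. Of the 3 genes, Isg15 and Usp18 thus read at least 2-fold higher on slide 2 and Socs1 did not.

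The interferon-inducible GTPases, which attack the membranes around intracellular microbes, are responsive above all to interferon gamma in mice. As a group their slide 2 differences ran from 0.36 to 2.41 (median 1.48), with 4 of 7 at least 2-fold higher, and their slide 1 median was -0.27 with 1 of 7 higher. Tgtp1 read 1.63 and 0.94 in the controls and 1.34 and 3.35 in Meis1-CKO, although its probes also match the near-identical Tgtp2. Ifi47 read 2.34 and 2.38 in the controls and 2.25 and 4.09 in Meis1-CKO. Gbp2, a guanylate-binding protein, read 1.37 and 0.87 in the controls and 1.09 and 2.73 in Meis1-CKO. In these 3 genes Meis1-CKO 2 stood clear of the other arrays, by slide 2 ratios of 5.31, 3.28 and 3.62. Gbp3, beside Gbp2 on chromosome 3, read 0.08 and 0.33 in the controls and 0.002 and 0.82 in Meis1-CKO, and Iigp1 read 0.82 and 0.72 in the controls and 0.52 and 1.08. The 4 arrays were close together for Gbp3 and Iigp1, whose slide 2 differences were 0.49 and 0.36. Irgm1, which regulates the other immunity-related GTPases, read 3.27 and 1.95 in the controls and 2.61 and 3.43 in Meis1-CKO. On this probe Meis1-CKO 2 was near control 1, with a slide 2 difference of 1.48, while another Irgm1 probe read 1.51 and 0.14 in the controls and 0.99 and 2.66 in Meis1-CKO, a slide 2 difference of 2.52. Igtp (Irgm3), the sole member of the group higher on both slides, read 2.64 and 2.40 in the controls and 2.68 and 3.31 in Meis1-CKO, with a slide 1 difference of 0.04.

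In each of the 5 other induced genes Meis1-CKO 2 was the highest array. Xaf1, a pro-apoptotic protein, read 1.99 and 0.68 in the controls and 1.78 and 3.39 in Meis1-CKO. Rtp4, a chaperone of receptors, read 2.14 and 1.08 in the controls and 1.55 and 3.24 in Meis1-CKO, and Ifi44, whose molecular role is less clear, read 0.35 and -0.73 in the controls and -0.21 and 1.57. In these 3 genes Meis1-CKO 1 lay between the controls. Parp14, an enzyme that attaches ADP-ribose, read 0.84 and 0.50 in the controls and 0.64 and 2.47 in Meis1-CKO. Ifi35, a leucine zipper protein, read -0.22 and -0.06 in the controls and 0.16 and 1.36 in Meis1-CKO. The pools did not overlap for Ifi35, with slide differences of 0.38 and 1.42 and a fitted difference of 0.90 ± 0.56 (SE, n = 2 pools each). The median of the 5 genes was -0.21 on slide 1 and 2.16 on slide 2.

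Single probes gave the same picture as genes. Of the 60 probes, 59 were above background on at least 1 array, and 59 of those 59 read higher in Meis1-CKO 2 than in control 2, whereas 19 read higher in Meis1-CKO 1 than in control 1. The remaining probe, of Irgm1, was above background on 0 arrays. In 16 of the 16 genes with several probes every measured probe read higher on slide 2, and in 8 of the 16 the probes disagreed in sign on slide 1. The 3 probes of Rsad2 differed by 2.69 to 4.14 on slide 2 and by 0.06 to 0.68 on slide 1, all higher. The 2 probes of Ifit2 differed by 4.46 and 4.78 on slide 2 and by -0.03 and 0.39 on slide 1, so the slide 1 sign of Ifit2 depended on the probe. The 4 probes of Ddx58 ran from 1.61 to 2.68 on slide 2. Probes of Dhx58 disagreed most on slide 1, at 0.14 and -2.63, the latter from a probe above background on 3 arrays. The median range between probes of a gene on slide 2 was 0.907, so the size of a fold is known less well than its sign.

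**Figure D3:**
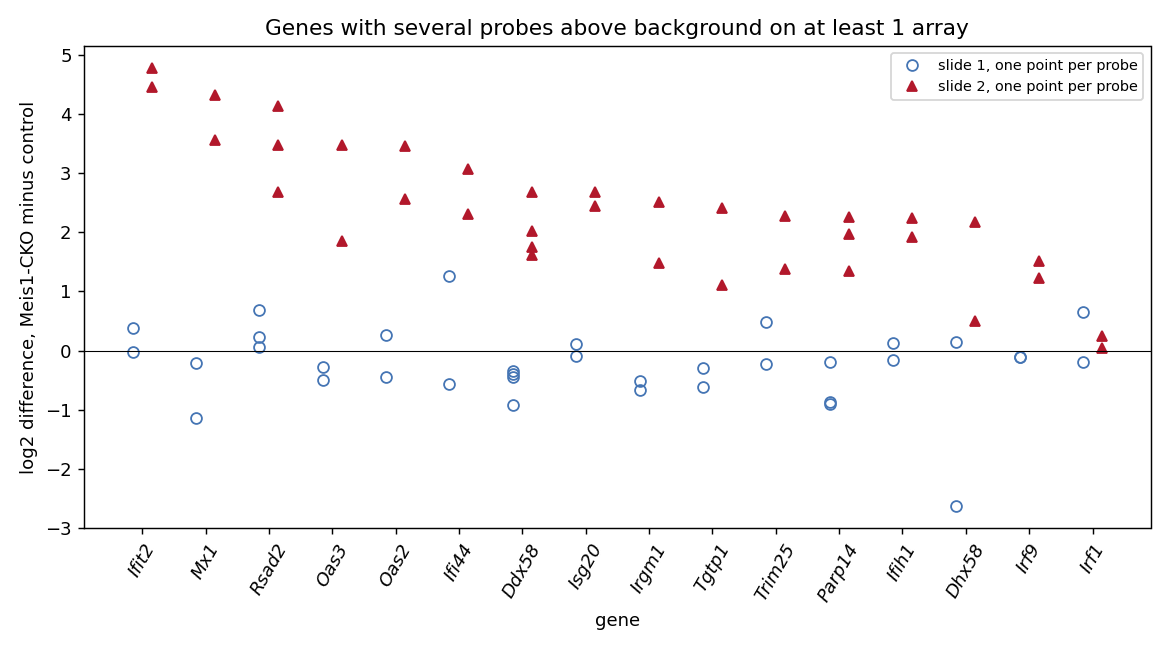
Log2 difference between Meis1-CKO and control within slide 1 (open circles) and slide 2 (filled triangles) for each probe above background on at least 1 array, in the 16 genes with several probes. All slide 2 points lie above 0 at this scaling, from 0.04 for Irf1 (below 0 under quantile normalization) to 4.78 for Ifit2, while slide 1 points fall on both sides.

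The members lie on 15 chromosomes, 9 of them on chromosome 11, so the slide 2 pattern was not that of a single locus. By the probes that stood for them, neighbours often differed in size. On chromosome 5 the slide 2 differences of Oas1a, Oas2 and Oas3 were 1.93, 2.56 and 3.48. Another probe gave 3.47 for Oas2 and 1.86 for Oas3. On chromosome 11 those of Irgm1, Ifi47 and Tgtp1 were 1.48, 1.71 and 2.41. Another probe gave 2.52 for Irgm1 and 1.11 for Tgtp1, so the order of neighbours depended on the probe.

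Upstream of the members, few interferon genes could be measured. Of 19 interferon genes listed, 13 had a probe and 4 were tested, with 0 called in limma. Ifnb1, the type I interferon beta, read -0.43 and -0.72 in the controls and -1.19 and -2.56 in Meis1-CKO. Both Meis1-CKO pools lay below both controls for Ifnb1 (14.4% of all features did), with slide differences of -0.75 and -1.84 and a fitted difference of -1.30 ± 0.60 (SE, n = 2 pools each), or -0.61 under normexp. Ifng, the gamma interferon, read -2.50 and -2.06 in the controls and -1.74 and -1.61 in Meis1-CKO. Both Meis1-CKO pools lay above both controls for Ifng, so these interferon genes went in opposite directions, with a fitted difference for Ifng of 0.60 that was 0.16 under normexp. Ifna9 and Ifnab, of the alpha family, had slide 2 differences of -0.54 and -1.13.

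Among 8 tested genes for receptors and kinases, 3 read higher on slide 1 and 7 on slide 2, and 0 were called. The type I receptor chain Ifnar2 read 1.92 and 1.90 in the controls and 1.45 and 3.14 in Meis1-CKO, and Ifnar1 read 0.06 and 0.28 in the controls and -0.10 and 1.08. The type III receptor chain Ifnlr1 read -0.11 and -1.17 in the controls and -2.21 and 1.57 in Meis1-CKO. In all 3 receptor genes Meis1-CKO 1 was the lowest array and Meis1-CKO 2 the highest. The gamma receptor chains Ifngr1 and Ifngr2 had slide 2 differences of 1.17 and -0.23, and Il10rb, a chain that the type III receptor shares with that of an interleukin, had 0.74. Jak2 read -0.21 and -0.14 in the controls and -0.07 and 2.15 in Meis1-CKO, whereas Jak1 read 4.13 and 3.26 in the controls and 3.99 and 3.29. On slide 2 Jak2 thus differed by 2.29 and Jak1 by 0.03.

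The regulators and adaptors were more mixed. Of 11 regulators 7 read higher on slide 1 and 8 on slide 2, and of 12 tested sensing adaptors 5 and 8 did, with 0 called in either list. Batf2, a transcription factor induced by interferon gamma, read -3.06 and -2.89 in the controls and -1.66 and -1.58 in Meis1-CKO. It differed alike on both slides, by 1.40 and 1.31, with a fitted difference of 1.35 ± 0.43 (SE, n = 2 pools each) and a limma adjusted p of 1. Its signal was near background in the controls, and under normexp the difference was 0.45. At an unadjusted p under 0.05 limma gave Batf2 as the 1 gene of these pathway lists. Irf5 read 0.47 and 0.66 in the controls and 0.55 and 2.94 in Meis1-CKO, and Irf8, a factor of myeloid and dendritic lineages, read 1.82 and 1.89 in the controls and 2.25 and 3.41. Sting1, the adaptor of cytosolic DNA sensing, read 6.37 and 6.53 in the controls and 6.25 and 5.84 in Meis1-CKO. Sting1 thus ran opposite to the members in Meis1-CKO 2.

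A further 39 interferon-induced genes outside the members had median differences of -0.10 on slide 1 and 1.60 on slide 2, with 12 and 31 higher and 0 called, or 6 called without Meis1-CKO 1. Among them, Trim30a read 1.40 and 0.56 in the controls and 1.43 and 4.11 in Meis1-CKO, and Parp12 read 1.36 and 1.09 in the controls and 1.55 and 4.03. The chemokine Cxcl10, an interferon gamma target, went otherwise at 4.46 and 4.93 in the controls and 4.51 and 4.36 in Meis1-CKO, and Cxcl9 read 2.97 and 2.99 in the controls and 2.91 and 3.68. Meis1-CKO 2 was the highest array for 27 of the 39, and 8 read lower in Meis1-CKO 2 than in control 2, by up to the -1.50 of Cxcl11, which was chosen after its values were seen.

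Most pan-leukocyte, myeloid and T cell markers read higher within slide 2, as the members did. Fibroblast, erythroid and endothelial markers mostly did not, with 0 of 6, 0 of 4 and 1 of 3 tested higher there. The summed signal of 8 pan-leukocyte markers, in units of each array's 75th percentile, was 26.2 and 30.7 in the controls, 23.6 in Meis1-CKO 1 and 137 in Meis1-CKO 2, with 2 of the 8 higher within slide 1 and 8 within slide 2. For 18 tested myeloid and dendritic markers of 20 it was 36.7 and 47.7 in the controls and 44.5 and 229 in Meis1-CKO, with 12 and 16 higher. Ptprc, which encodes the CD45 that the sort selected against, read 1.44 and 1.19 in the controls and -0.75 and 5.55 in Meis1-CKO, and Itgax (CD11c) read 2.97 in Meis1-CKO 2 and between -3.76 and -2.0 in the other pools. The myeloid marker Itgam read 0.42 and 0.09 in the controls and 1.34 and 0.64 in Meis1-CKO, so it was highest in Meis1-CKO 1. Ptprc was thus above background on all 4 arrays, and highest on the array where the interferon response genes were highest. The plasmacytoid dendritic list was mixed. Its 10 tested markers of 11 summed to 66.7 and 45.6 in the controls and 51.5 and 75.9 in Meis1-CKO. Of the 10, 5 read higher within slide 1 and 5 within slide 2, and the median level was lowest in Meis1-CKO 2, at 0.85 against 0.93 to 1.15. Siglech was above background on Meis1-CKO 2 alone, at -3.22, near background. The T cell markers summed to 62.0 and 28.2 in the controls and 11.4 and 55.8 in Meis1-CKO over 13 of 16 markers, and Cd3e read 2.08 and 1.13 in the controls and -1.88 and 3.14. Of the 13, 2 read higher within slide 1 and 10 within slide 2.

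General epithelial markers read lower in Meis1-CKO 2, and most cortical and medullary markers read lower within slide 2. The summed signal of 10 general epithelial markers was 387 and 290 in the controls and 320 and 172 in Meis1-CKO, with 5 of the 10 higher within slide 1 and 0 within slide 2. For 9 cortical markers it was 306 and 232 in the controls and 293 and 105 in Meis1-CKO, with 3 of the 9 higher within slide 2. For 12 medullary markers it was 282 and 266 in the controls and 252 and 228 in Meis1-CKO, but their median level was highest in Meis1-CKO 2, at 2.95 against 2.52 to 2.80. Of the 12, 3 read higher within slide 2 and 9 lower. The 3 higher ones were each at least 2-fold higher (Ctss, Cd86 and Ccl22, named after their values were seen). Of the 9 lower ones, 3 were at least 2-fold lower (Aire, Ccl19 and Fezf2, the last 2 likewise named after their values were seen). Aire read 2.50 and 4.59 in the controls and 3.03 and 2.37 in Meis1-CKO. Foxn1, the master regulator of thymic epithelium, read 1.02 and 1.21 in the controls and 0.85 and -0.69 in Meis1-CKO, and Psmb11, a proteasome subunit of cortical cells, read 3.13 and 2.14 in the controls and 2.53 and -1.19. The part of leukocyte and epithelial cell numbers in the levels of the interferon response genes was not tested. In pooled cells, more cells of a type and more RNA per cell cannot be told apart. The sex-linked genes also differed between pools, with Xist at 5.98 and 4.32 in the controls and 5.55 and 2.97 in Meis1-CKO, and Eif2s3y, above background on 3 arrays, at -1.69 and 1.15 in the controls and -5.77 and 2.79. The pools of slide 2 thus had lower Xist and higher Eif2s3y than those of slide 1, in both genotypes.

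**Figure D4:**
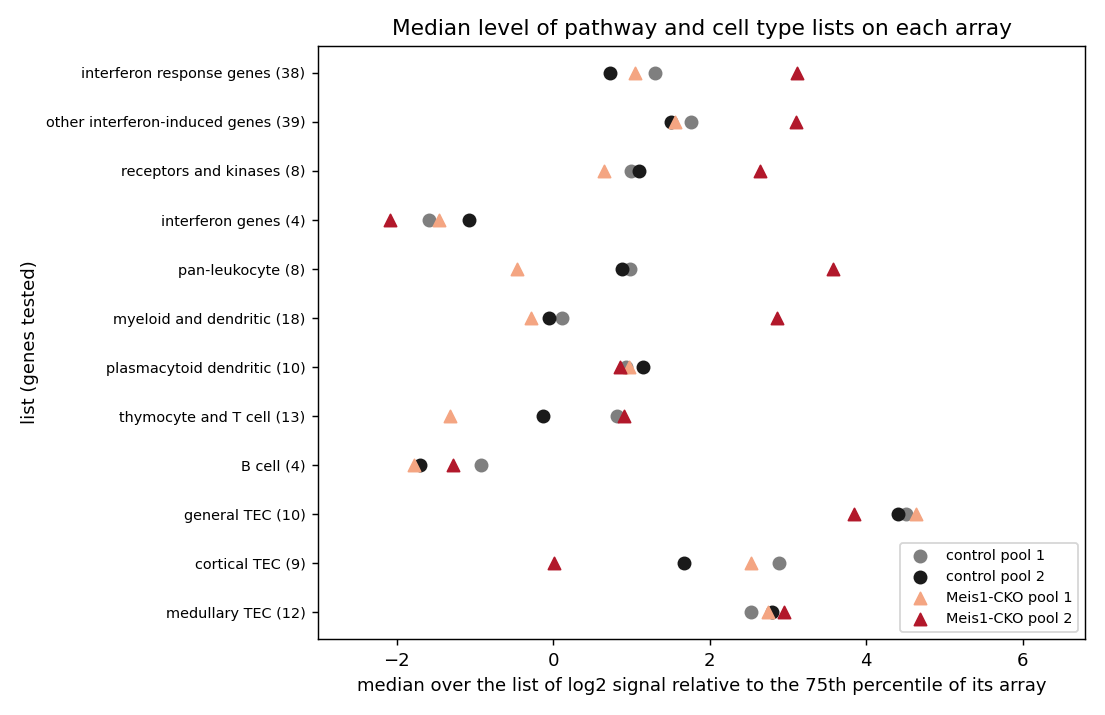
Median over each gene list of the log2 signal relative to the 75th percentile of its array (horizontal axis), by list (vertical axis, with the number of genes tested), for 2 control pools (circles) and 2 Meis1-CKO pools (triangles). Meis1-CKO 2 is highest for the interferon response genes (3.12, against 0.72 to 1.30 in the other pools), for pan-leukocyte and for myeloid and dendritic markers, lowest for the general and cortical epithelial lists, and highest, by a small margin, for the medullary list (2.95 against 2.52 to 2.80).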

How the data were processed

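Each of 4 pools of sorted thymic epithelial cells was measured on 1 Agilent array. The authors deposited scanner output in which each spot has a linear intensity, background-subtracted and detrended within its array by Agilent Feature Extraction 9.5.3.1, per the file headers. A deposited table gives values per probe on a log2 scale, and the steps behind it are not given in the sources used here. Over 20818 of its 41174 probes, its Meis1-CKO 1 minus control 1 differences were set against those of the scaled scanner signals. The correlation was 1 and the slope 1, and every row had a median of 0 over the arrays. On slide 2 the median difference of the members was 1.93 from the deposited values and 1.93 from the scanner signals. The median of its column was 0.04 for control 1, 0.09 for control 2, -0.06 for Meis1-CKO 1 and -0.12 for Meis1-CKO 2. Scale and direction were thus settled by the values for control 1 and Meis1-CKO 1, and centring for every column.

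The log2 processed signal minus the 75th percentile of each array was used, after leaving out 1639 control spots and 63 to 78 outlier spots per array. The 75th percentiles were 93.2 to 152 intensity units. A probe was tested if both arrays of either genotype had it well above background (24266 probes), and a gene was read from its brightest probe on average, giving 16820 features. Probe symbols were updated through a RefSeq gene table (GRCm38.p6), by accession for 26682 probes, by current symbol for 5195 and by older symbol for 951; 1255 kept the name in the file and 7091 had none. Probe coordinates are those of the files (mm9); whether a probe lies in an exon or UTR was not analysed here.

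Genotypes were compared with limma 3.58.1 in R 4.3.3 (lmFit and eBayes) on all 4 arrays, with Benjamini-Hochberg adjustment over all features and a threshold of 0.05. The test was checked on simulated data. The number of arrays limits the precision (2 residual degrees of freedom, 5.52 with moderation), and p-values measure the spread between pools. Slide, scan and replicate number coincide, so none of these can be told apart, and differences within a slide have 1 array per genotype and no test.

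The members and gene lists were chosen with earlier results of these data known. All members are named. Of other pathway genes, those named are the receptor and kinase list, Ifnb1, Cxcl10, Cxcl9 and some of up to 4 genes per list with the smallest p, with defining cell markers, Meis1, Xist and Eif2s3y beside them. The result of 1 further gene that the rule names is not reported here. Promoter windows came from a RefSeq table, and probe sequences were not used. Alternatives covered background correction, normalization, filters, probe choice, the value table, a replicate block and leaving out each array.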

Additional observations from a re-analysis of the deposited data

How the results depend on the processing

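Under normexp, quantile and median scaling, 2 other filters on dim probes, the mean of probes and the deposited value table, limma called 0 features and 0 interferon response genes, and the median difference stayed between 0.76 and 0.92. The slide 1 median stayed between -0.21 and -0.10 and the slide 2 median between 1.66 and 1.99. With the replicate block the calls were 0 and 0, with a median difference of 0.89 and 667 features at an unadjusted p under 0.05; normexp gave 181 such features and no filter 1012, against 469. The deviations of same-numbered arrays correlated at 0.13, and the labels do not say that a number marks a shared day or litter. Leaving out 1 array each gave 0 to 325 called features, 0 to 4 called members and a median of -0.07 to 1.77, the higher counts without Meis1-CKO 1. Signs turned for Jak1 (0.0045) and Eif2s3y (0.40) under normexp, Ifngr2 under quantile normalization (-0.060) and in the value table (-0.0012), and Irf1 for the mean of probes (0.19); the cause was not tested. Under normexp 17 named genes moved by over 1.5 times, among the members Stat2 and Oas2, and for the mean of probes Dhx58 (0.048), Irgm1 (0.70), Tgtp1 (0.65) and Trim25 (0.98) did. Signs also turned when 1 array was left out for these members: Stat2 -0.36 to 2.98, Irf9 -0.21 to 1.62, Irf1 -0.29 to 0.14, Irf7 -0.61 to 4.07, Dhx58 -0.14 to 2.47, Zbp1 -0.32 to 2.08, Trim25 -0.19 to 1.33, Ifit3 -0.24 to 2.32, Oas1a -0.17 to 2.20, Oas2 -0.94 to 3.76, Oas3 -0.13 to 3.12, Mx1 -0.67 to 3.09, Bst2 -0.013 to 2.65, Ifitm3 -0.75 to 0.24, Eif2ak2 -0.33 to 1.78, Isg15 -0.18 to 2.65, Usp18 -0.025 to 1.23, Socs1 -0.52 to 0.15, Gbp2 -0.029 to 1.61, Gbp3 -0.21 to 0.62, Iigp1 -0.26 to 0.31, Irgm1 -0.26 to 1.06, Ifi47 -0.11 to 1.73, Ifi44 -0.022 to 1.76, Rtp4 -0.061 to 1.63 and Parp14 -0.030 to 1.80. The lower end of each of these ranges was the fit without Meis1-CKO 2, save for Ifitm3, Socs1 and Irgm1. Among the other genes the ranges were Ifnar1 -0.27 to 0.92, Ifnar2 -0.46 to 1.23, Ifngr1 -0.77 to 1.03, Ifngr2 -0.36 to 0.36, Ifnlr1 -1.57 to 2.21, Jak1 -0.49 to 0.38, Cxcl9 -0.071 to 0.70, Ptprc -2.07 to 4.24, Cd3e -3.49 to 1.53, Epcam -0.43 to 0.050, Aire -1.89 to 0.20, Meis1 -1.57 to 0.078, Xist -2.18 to 0.39, Eif2s3y -5.49 to 3.06 and Irf5 -0.013 to 2.38. Depth on arrays is signal over background, which limits Oas2 and Mx2 most.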
